A study of Xenopus laevis with 8 samples.

Results

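The genes described here belong to the Notch pathway and to primary neurogenesis in Xenopus laevis. They were taken by symbol from the array's annotation: notch, delta (dll), jag, hes, hey, fringe (lfng, mfng, rfng), numb, mib and rbpj genes, and the neurog, neurod, ebf, ascl, atoh, nhlh, myt1, elavl3, elavl4, stmn, tubb and insm genes, with hesx1 left out. This rule found 60 genes, represented by 81 probe sets, of the 11303 gene symbols on the array. This frog is allotetraploid, and .L or .S after a symbol tells which of its subgenomes (long or short chromosomes) carries the copy. Where a gene had several probe sets, which was so for 15 of the 60, its brightest one stands for it.

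In Notch signalling a Delta or Jagged ligand on one cell binds the Notch receptor on its neighbour, the receptor is cut, and its intracellular part joins the DNA-binding protein Rbpj to switch on hes and hey genes, which encode transcriptional repressors. In the neural plate of the frog, proneural factors of the Neurogenin family raise delta in the cells that become the first neurons, and Notch in their neighbours represses the proneural genes there (lateral inhibition). Cells that escape this repression go on through a cascade of transcription factors (Neurod, Myt1, Ebf) to the products of a differentiated neuron, such as neuronal tubulin.

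RNA was measured in animal caps, the ectoderm of the blastula's animal pole, which forms epidermis when grown alone. Messages and the morpholino were injected into the animal pole at the 2-cell stage, and caps were dissected at stage 9. The labels give collection at stage 15, although a sentence of the series' design text can be read as extraction at stage 9. There were 4 groups of 2 arrays each. The first group received chordin message, wnt3a message and lrig3MO, an antisense morpholino against lrig3 (morpholino caps). The second received chordin and wnt3a (wnt3a caps), the third chordin alone (chordin caps), and the fourth was uninjected. Chordin, a secreted antagonist of bone morphogenetic proteins, turns caps neural. Wnt3a is a secreted Wnt ligand, and Lrig3 is a membrane protein with leucine-rich repeats that the study asked about. No group with a control morpholino, with the morpholino alone or with wnt3a alone was analysed here. The labels do not say that the replicates came from separate batches of embryos, so a p-value here reflects the spread of these arrays alone, and that spread may be technical.

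The deposited signals are array intensities on a linear scale, scaled so that every array has the same trimmed mean, and their median per array lay between 95.6 and 114. The highest negative control probe set of each array, between 19.5 and 30.8, is used as its background, and 28 of the 60 genes lay above it on all 8 arrays. Injected wnt3a message stood out where the labels put it: wnt3a.S read 27550 and 25480 in morpholino caps and 10960 and 18770 in wnt3a caps, against 2.24 and 0.5 in chordin caps and 28.2 and 14.1 in uninjected caps. The chordin gene chrd.1.S read 156 and 159 in morpholino caps and 100 and 291 in wnt3a caps. In chordin caps it read 468 and 771, and in uninjected caps 1.66 and 1.34. Its difference of wnt3a caps from chordin caps was -1.78 and did not pass (limma adjusted p = 0.0991). The part of this lower chordin signal in the changes with wnt3a was not tested. Transcripts of lrig3.S, which a morpholino need not lower, read 4787 and 3002 in morpholino caps and 741 and 756 in wnt3a caps, against 3191 and 2158 in chordin caps and 95.6 and 172 in uninjected caps. They rose by 4.30 with chordin (limma adjusted p = 0.000774), fell by 1.80 when wnt3a was added (limma adjusted p = 0.0305) and rose by 2.33 with the morpholino (limma adjusted p = 0.0246). The morpholino arrays differed from each other in other tissues' genes. The summed signal of 23 mesoderm and muscle genes was 19680 on morpholino replicate 1 and 5770 on replicate 2, against 4752 and 5057 in wnt3a caps, 655 and 700.3 in chordin caps and 464 and 490.2 in uninjected caps. The gene wnt8a.L alone read 4612 and 4777 in morpholino caps and 2449 and 4151 in wnt3a caps, and without this gene, left out after its values were seen, the sums were 15070 and 993 in morpholino caps, 2302 and 906 in wnt3a caps, 654 and 686 in chordin caps and 446.5 and 461 in uninjected caps. The summed signal of 21 multiciliated cell genes was 2842 and 8340 in morpholino caps, against 2742 and 2359 in wnt3a caps. That of 10 ionocyte genes was 3084 and 10100 in morpholino caps and 4020 and 2976 in wnt3a caps. In chordin caps it was 4966 and 7234, and in uninjected caps 24060 and 26210. Among the defining markers, tbxt.L of mesoderm read 1835 and 10.5 on the morpholino replicates and 110 and 6.87 on the wnt3a replicates. Foxi1.L of ionocytes read 3.98 and 1507 on the morpholino replicates. The replicates of other groups differed in it too, with 367 and 11.1 in wnt3a caps and 37.5 and 346 in chordin caps. The part of these cells in the results below was not tested, and the values without each morpholino array are given. In whole caps, fewer cells of a type and less RNA per cell cannot be told apart.

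Of the 60 genes, 41 passed a filter on low signal and were tested with limma, among 22000 probe sets in all. A gene is said to have risen, fallen or changed when its Benjamini-Hochberg adjusted p over those 22000 was under 0.05. Changes are differences of log2(signal + 5.22), and the error given is the standard error of that difference with 2 arrays in each group. The comparisons share arrays, so a low value in one group enters more than 1 of them.

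In chordin caps against uninjected caps, 13 of the 41 genes rose and 5 fell, beside 17.6% of all probe sets tested that rose and 11.7% that fell. The hes genes hes7.1.L, hes1.S and hes1.L rose most. The others that rose were the Notch mediator rbpj.S, the fringe gene lfng.S, 4 genes of the hes5 group, ebf2.S, tubb3.L, tubb2b.S and tubb.L. Those that fell were hes5.1.S, hes5.3.L, hey1.S and both tubb4b copies. The median change of the 41 genes was 0.25 and that of all probe sets 0.086. Under the omission of each of the 8 arrays in turn, 7 of the 13 and 2 of the 5 kept their call every time.

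When wnt3a was added to chordin, 5 genes rose (jag1.L, hes2.L, hes4.L, ebf2.S and ebf3.L) and 5 fell (hes1.L, hes1.S, hes7.1.L, lfng.S and stmn1.S), beside 3.08% and 2.74% of all probe sets. The median change was 0.068 for the 41 genes and -0.012 for all. Under every omission jag1.L kept its rise, and hes1.L, hes1.S and stmn1.S kept their fall. With the replicate number as a block, 7 rose and 6 fell, beside 1079 and 952 of all 22000 probe sets (678 and 602 without the block).

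When the lrig3 morpholino was added to chordin and wnt3a, 8 genes rose and 1 fell, beside 2.73% and 2.16% of all probe sets. Those that rose were the ligand dll1.L, the receptor notch1.S, lfng.S, 4 genes of the hes5 group (hes5.1.L, hes5.1.S, hes5.2.L and hes5.5.S) and stmn1.S, and the one that fell was tubb6.L. The median change was 0.87 for the 41 genes and 0.034 for all. These 9 calls depend on the arrays fitted: leaving out morpholino replicate 1, wnt3a replicate 1 or wnt3a replicate 2 left 0 called by limma in either direction. Over all probe sets those omissions also left far fewer calls than the full fit, so the loss was not particular to these genes. A fit of the 4 compared arrays alone also called 0 of 39 genes tested, with 25 rises and 7 falls among 20236 probe sets in all. The full fit had 601 and 476 among 22000. The smaller fit had 15 of the 39 genes higher and 1 lower at an unadjusted p under 0.05. The share of all probe sets at that threshold was not taken, so these counts cannot be weighed.

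In wnt3a caps against uninjected caps, 16 of the 41 genes rose and 4 fell, beside 19.0% and 14.7% of all probe sets. The 16 included jag1.L, rbpj.S, hes1.S, hes2.L, hes4.L, hes7.1.L, 4 genes of the hes5 group, ebf2.S and ebf3.L, and 4 tubulins, while dll1.L, stmn1.S and both tubb4b copies fell. The median change was 0.54 for the 41 genes and 0.11 for all. The heat map of the 41 genes shows the 4 comparisons beside each other.

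**Figure D1:**
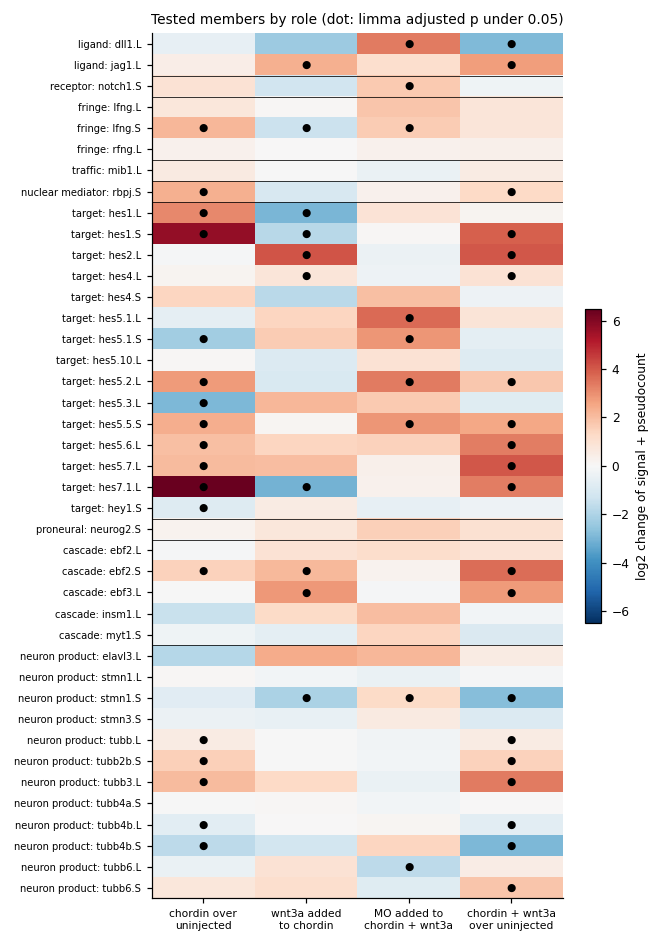
Change of each tested gene (down the page, ordered by role) in each of the 4 comparisons (across), as the difference of log2(signal + 5.22) with 2 arrays a group, red for higher and blue for lower; a dot marks a limma adjusted p under 0.05. Of the 41 tested genes 15 are hes or hey genes. They carry 7 of the 13 rises and 3 of the 5 falls with chordin, and 4 of the 8 rises with the morpholino. Of all probe sets 17.6% rose and 11.7% fell with chordin, and 2.73% rose with the morpholino.

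Of the ligands, dll1.L (Delta, the ligand of lateral inhibition) was lowest in wnt3a caps. Its signal was 3283 and 1190 in morpholino caps, 235 and 144 in wnt3a caps, 1452 and 634 in chordin caps and 1550 and 1236 in uninjected caps. Both wnt3a arrays lay below all 6 others, and the morpholino arrays overlapped those of the chordin and uninjected caps. Against uninjected caps dll1.L fell by 2.88 in wnt3a caps (SE 0.57, limma adjusted p = 0.0114). With the morpholino it rose by 3.39 (SE 0.57, limma adjusted p = 0.0312). The difference of wnt3a caps from chordin caps was -2.35 (SE 0.57) and did not pass (limma adjusted p = 0.0677), although it did with the replicate number as a block (limma adjusted p = 0.00604). A dimmer dll1.L probe set was also lowest in wnt3a caps, with signals of 1201 and 431 in morpholino caps, 121 and 64.3 in wnt3a caps, 555 and 573 in chordin caps, and 336 and 285 in uninjected caps. With wnt3a its change was -2.60 (limma adjusted p = 0.0293), and that of the mean of both probe sets -2.48 (limma adjusted p = 0.039), so both passed. With chordin it differed by 0.85 and the brighter set by -0.52 (limma adjusted p = 0.232 and 0.523). Its morpholino arrays lay above the uninjected ones. The morpholino call of dll1.L held under 2 of the 8 omissions, those of chordin replicate 2 and morpholino replicate 2, with a change between 2.66 and 4.12 over all 8 and a limma adjusted p of at most 0.135. Its fall against uninjected caps was lost without uninjected replicate 1 or wnt3a replicate 2 (limma adjusted p up to 0.0669).

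The other ligand found by the symbols above, jag1.L (Jagged1, known in the frog as Serrate1), was high on the arrays with wnt3a. Its signal was 1973 and 1325 in morpholino caps, 693 and 803 in wnt3a caps, 168 and 131 in chordin caps and 91.0 and 129 in uninjected caps. The 4 arrays with wnt3a all lay above the 4 without it. Adding wnt3a to chordin raised jag1.L by 2.29 (SE 0.28, limma adjusted p = 0.00577), a call that held under all 8 omissions. The further difference with the morpholino was 1.11 (SE 0.28). It did not pass (limma adjusted p = 0.0714) except with the replicate block (limma adjusted p = 0.045). In wnt3a caps, jag1.L had risen by 2.72 against uninjected caps where dll1.L had fallen.

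The receptor notch1.S read 2494 and 2268 in morpholino caps, 531 and 1031 in wnt3a caps, 1791 and 1699 in chordin caps and 763 and 1080 in uninjected caps. Both morpholino arrays lay above all 6 others. It rose with the morpholino by 1.68 (SE 0.32, limma adjusted p = 0.0381). This call was lost under each of the 8 omissions, with a change of at most 2.15 and a limma adjusted p of up to 0.141. Its difference in chordin caps was 0.94 (SE 0.32) and did not pass (limma adjusted p = 0.0644, and 0.0427 with the replicate block). No other Notch receptor gene matched the rule by a single symbol.

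The mediator rbpj.S, the DNA-binding partner of the cut receptor (Su(H) in the frog literature), read 1765 and 1230 in morpholino caps, 1142 and 1285 in wnt3a caps, 2986 and 2039 in chordin caps and 514 and 466 in uninjected caps. The chordin arrays were the highest of the 8 and the uninjected arrays the lowest. It rose by 2.32 in chordin caps (SE 0.25, limma adjusted p = 0.00158), under all 8 omissions, and by 1.30 in wnt3a caps against uninjected caps (SE 0.25, limma adjusted p = 0.00938). That second call was lost without uninjected replicate 2 or wnt3a replicate 2 (limma adjusted p up to 0.0571), and on the mean of its 3 probe sets the change was 0.57 (limma adjusted p = 0.106). Wnt3a caps differed from chordin caps by -1.02 (limma adjusted p = 0.0635, and 0.0268 with the replicate block). On the mean of the 3 probe sets that difference was -1.22 and passed (limma adjusted p = 0.032). Morpholino caps differed from wnt3a caps by 0.28 (limma adjusted p = 0.539). The morpholino and wnt3a arrays of rbpj.S overlapped.

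The fringes are glycosyltransferases that modify Notch and alter which ligands it answers to. Lunatic fringe lfng.S read 656 and 422 in morpholino caps, 184 and 147 in wnt3a caps, 509.7 and 381 in chordin caps and 82.9 and 106 in uninjected caps. Chordin and morpholino arrays overlapped, and the wnt3a arrays lay between them and the uninjected arrays. It rose by 2.18 with chordin (SE 0.30, limma adjusted p = 0.0037), fell by 1.40 when wnt3a was added (SE 0.30, limma adjusted p = 0.0427) and rose by 1.65 with the morpholino (SE 0.30, limma adjusted p = 0.0351). The chordin call held under all 8 omissions, the wnt3a call under those of the 2 morpholino arrays, and the morpholino call only under that of morpholino replicate 2, with limma adjusted p of up to 0.256 and 0.143. In wnt3a caps against uninjected caps its difference was 0.78 and did not pass (limma adjusted p = 0.0842, and 0.0483 with the replicate block). The copy lfng.L was dimmer, with 208 and 141 in morpholino caps, 56.3 and 35.5 in wnt3a caps, 69.6 and 24.7 in chordin caps and 28.7 and 19.4 in uninjected caps. Its morpholino arrays were the highest of the 8. Its change with the morpholino, 1.82 (SE 0.51), did not pass (limma adjusted p = 0.0879) except with the replicate block (limma adjusted p = 0.0199). Radical fringe rfng.L stayed between 706 and 1165 on all arrays, with changes of 0.045 to 0.31 that passed in no comparison.

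Mib1.L, the ubiquitin ligase Mind bomb that ligand-bearing cells need to take up their ligand, read 478 and 481 in morpholino caps, 612 and 707 in wnt3a caps, 707 and 647 in chordin caps and 499 and 409 in uninjected caps. None of the changes of this brightest probe set passed. The largest, 0.58 with chordin (limma adjusted p = 0.0529), became a call under the replicate block and under a stricter filter (limma adjusted p = 0.0339 and 0.0446). On the mean of both mib1.L probe sets the changes with chordin and in wnt3a caps against uninjected caps passed (0.60 and 0.66, limma adjusted p = 0.0499 and 0.0336). For the brightest set the difference of wnt3a caps from uninjected caps was 0.54 (limma adjusted p = 0.06, and 0.0397 with the replicate block). The dimmer set read 265 and 304 in morpholino caps and 562 and 574 in wnt3a caps. In chordin caps it read 603 and 427.5, and in uninjected caps 339 and 321. Mib2.L did not exceed background on any array.

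**Figure D2:**
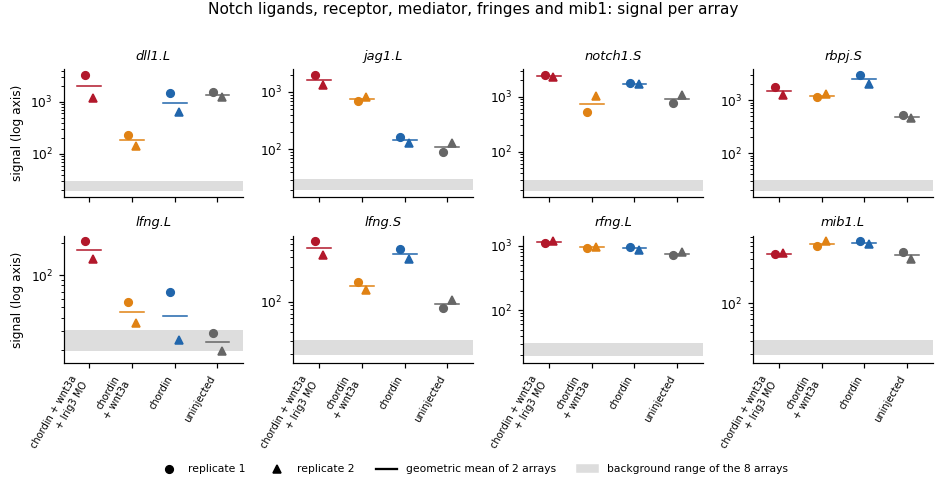
Signal on each array (vertical, log axis) of the ligands, the receptor, Rbpj, the fringes and mib1, by group; circles are replicate 1, triangles replicate 2, bars the geometric mean of 2 arrays, and the grey band the background range of 19.5 to 30.8. The wnt3a arrays of dll1.L, at 235 and 144, lie below all other arrays, while those of jag1.L lie above the chordin and uninjected arrays.

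Among the hes genes, both copies of hes1 (hairy1) were highest in chordin caps. Hes1.S read 1589 and 1542 in morpholino caps, 1583 and 1361 in wnt3a caps, 4937 and 5328 in chordin caps and 82.4 and 108 in uninjected caps. The chordin arrays lay above, and the uninjected arrays below, all others, and the morpholino and wnt3a arrays overlapped. It rose by 5.69 with chordin (SE 0.18, limma adjusted p = 9.48e-05) and fell by 1.80 with wnt3a (SE 0.18, limma adjusted p = 0.00267), yet stayed 3.89 above uninjected caps (SE 0.18, limma adjusted p = 0.000107). Hes1.L read 2667 and 1386 in morpholino caps, 1177 and 938 in wnt3a caps, 7618 and 8832 in chordin caps and 876 and 1002 in uninjected caps. Its chordin arrays were the highest, and its wnt3a arrays overlapped the uninjected ones. It rose by 3.12 with chordin (SE 0.30, limma adjusted p = 0.00126) and fell by 2.96 with wnt3a (SE 0.30, limma adjusted p = 0.00308). All 5 of these calls held under each of the 8 omissions. With the morpholino, hes1.L differed by 0.87 (limma adjusted p = 0.142) and hes1.S by 0.093 (limma adjusted p = 0.798), and neither passed.

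Hes7.1.L, of the Enhancer of split type, read 99.3 and 158 in morpholino caps, 87.6 and 124 in wnt3a caps, 1466 and 581 in chordin caps and 14.8 and 0.65 in uninjected caps. Both uninjected arrays were at background and both chordin arrays lay above all others. Its level was at least 30.3-fold higher in chordin caps than in uninjected caps, counting the uninjected arrays at their background (limma adjusted p = 0.00164). It was at least 3.57-fold higher in wnt3a caps than in uninjected caps (limma adjusted p = 0.0118). When wnt3a was added it fell by 3.09 (SE 0.67, limma adjusted p = 0.0471), a call lost with the replicate block (limma adjusted p = 0.0537) and held under the omission of the 2 uninjected arrays only, with limma adjusted p of up to 0.255 under the others. Its chordin call held under all 8 omissions, and the call in wnt3a caps was lost without wnt3a replicate 2 (limma adjusted p = 0.0677). Morpholino and wnt3a arrays of hes7.1.L overlapped. Its 2 other probe sets were at or near background, and on the mean of all its probe sets the changes were -2.21 with wnt3a and 0.73 in wnt3a caps against uninjected caps (limma adjusted p = 0.0969 and 0.387).

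Hes2.L, another hes repressor, read 348 and 328 in morpholino caps, 569 and 353 in wnt3a caps, 16.7 and 26.2 in chordin caps and 6.54 and 59.5 in uninjected caps. The 4 arrays with wnt3a lay above the 4 without it, of which 2 exceeded background. It rose by 4.11 when wnt3a was added (SE 0.74, limma adjusted p = 0.0257) and by 4.04 in wnt3a caps against uninjected caps (SE 0.74, limma adjusted p = 0.00885). The call against chordin caps was lost without either chordin or either wnt3a array (limma adjusted p up to 0.168), and that against uninjected caps held under all 8 omissions.

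Hes4, which the frog literature calls hairy2 and places at the neural plate border, was measured in both copies. Hes4.L was bright everywhere, with 8708 and 7355 in morpholino caps, 9291 and 11020 in wnt3a caps, 6639 and 5224 in chordin caps and 5826 and 4812 in uninjected caps. Its wnt3a arrays were the highest of the 8. It rose by 0.78 with wnt3a (SE 0.17, limma adjusted p = 0.0492), a call lost under each of the 8 omissions (limma adjusted p up to 0.241), and by 0.93 in wnt3a caps against uninjected caps (SE 0.17, limma adjusted p = 0.00888). The call against uninjected caps was lost without uninjected replicate 2 or wnt3a replicate 2 (limma adjusted p up to 0.0591). Hes4.S read 3730 and 1074 in morpholino caps, 534 and 499.9 in wnt3a caps, 2575 and 1184 in chordin caps and 593 and 718 in uninjected caps. Its wnt3a arrays were the lowest of the 8, and the replicates of the morpholino and chordin caps lay far apart. None of its changes passed: 1.41 with chordin, -1.75 with wnt3a and 1.94 with the morpholino, with limma adjusted p of 0.118, 0.181 and 0.109. The difference between the copies passed in no comparison (limma adjusted p = 0.0736 with wnt3a and 0.0708 with the morpholino), while the replicate block gave 0.0472 and 0.0475. The hes4.S probe set, like that of hes7.2.L, carries the manufacturer's mark for probes that may cross-hybridise. Those standing for dll1.L, hey1.S and rfng.L carry its mark for probes shared between transcripts.

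Hey1.S, a relative of the hes genes, read 279 and 213 in morpholino caps, 363 and 347 in wnt3a caps, 233 and 263 in chordin caps and 524 and 391 in uninjected caps. Its uninjected arrays were the highest. It fell by 0.86 with chordin (SE 0.24, limma adjusted p = 0.0343), which was lost without any of the 4 arrays compared (limma adjusted p up to 0.174) and on the mean of both its probe sets, where the change was -0.76 (limma adjusted p = 0.0900).

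The hes5 group, Enhancer of split related genes that answer to Notch in the frog's neural plate, had 9 genes of which 8 were tested. With chordin 4 rose and 2 fell, beside 17.6% and 11.7% of all probe sets. When wnt3a was added, limma called 0 of the 8, beside 3.08% that rose and 2.74% that fell. At an unadjusted p under 0.05, 4 were higher, a count whose share of all probe sets was not taken. The replicate block called 2 of the 8 (hes5.1.S and hes5.3.L), and spike-in scaling 3 (hes5.1.S, hes5.3.L and hes5.7.L). Over all 22000 probe sets the block gave 1079 rises and 952 falls there, and spike-in scaling 583 and 420. With the morpholino 4 rose, beside 2.73% of all probe sets, and the other 4 had changes between 0.35 and 1.70 that did not pass. In wnt3a caps against uninjected caps 4 rose, beside 19.0%.

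Hes5.1.L read 3230 and 1287 in morpholino caps, 248 and 93.3 in wnt3a caps, 37.5 and 76.5 in chordin caps and 74.3 and 91.2 in uninjected caps. Hes5.1.S read 1160 and 580.2 in morpholino caps, 115 and 103 in wnt3a caps, 31.8 and 30.5 in chordin caps and 214 and 135 in uninjected caps. For both copies the morpholino arrays were the highest of the 8, and for hes5.1.S the chordin arrays were the lowest. With the morpholino, hes5.1.L rose by 3.69 (SE 0.61, limma adjusted p = 0.0293) and hes5.1.S by 2.86 (SE 0.38, limma adjusted p = 0.0216). With chordin, hes5.1.S fell by 2.27 (SE 0.38, limma adjusted p = 0.00681), and its difference when wnt3a was added, 1.65, did not pass (limma adjusted p = 0.0541, and 0.0178 with the replicate block). Hes5.1.L differed by -0.57 with chordin (limma adjusted p = 0.517).

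Hes5.5.S read 2298 and 1058 in morpholino caps, 280.3 and 157 in wnt3a caps, 199.8 and 181 in chordin caps and 34.1 and 31.5 in uninjected caps. Each step other than that from chordin to wnt3a caps separated its arrays. It rose by 2.36 with chordin (SE 0.42, limma adjusted p = 0.00815) and by 2.86 with the morpholino (SE 0.42, limma adjusted p = 0.0238). In wnt3a caps it was 2.50 above uninjected caps (SE 0.42, limma adjusted p = 0.00621).

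Hes5.2.L read 591 and 249 in morpholino caps, 40.7 and 26.0 in wnt3a caps, 60.5 and 79.3 in chordin caps and 5.57 and 6.11 in uninjected caps. It was at background in both uninjected arrays and in wnt3a replicate 2, and highest in both morpholino arrays. It rose by 3.36 with the morpholino (SE 0.46, limma adjusted p = 0.0229). Against uninjected caps it was at least 2.43-fold higher in chordin caps and at least 1.24-fold higher in wnt3a caps (limma adjusted p = 0.00694 and 0.0257). The chordin call held under all 8 omissions, and that in wnt3a caps was lost without any of the 4 arrays compared (limma adjusted p up to 0.105) and under the stricter filter (limma adjusted p = 0.0668).

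Hes5.6.L read 1262 and 611 in morpholino caps, 358 and 269.7 in wnt3a caps, 77.6 and 172 in chordin caps and 14.7 and 43.3 in uninjected caps. Hes5.7.L read 2291 and 721 in morpholino caps, 1460 and 694 in wnt3a caps, 224 and 276 in chordin caps and 54.1 and 59.5 in uninjected caps. In both genes the 3 injected groups lay above the uninjected arrays, and wnt3a arrays lay above chordin arrays. In wnt3a caps hes5.6.L rose by 3.35 (SE 0.58, limma adjusted p = 0.00734) and hes5.7.L by 4.03 (SE 0.57, limma adjusted p = 0.00402) against uninjected caps, calls that held under all 8 omissions. With chordin their rises were 1.96 and 2.03 (limma adjusted p = 0.044 and 0.037). The call of hes5.6.L with chordin was lost with the replicate block (limma adjusted p = 0.0577), and both chordin calls were lost without uninjected replicate 1, chordin replicate 1 or chordin replicate 2 and under some other omissions (limma adjusted p up to 0.199 and 0.143). With the morpholino the differences were 1.48 for hes5.6.L and 0.35 for hes5.7.L (limma adjusted p = 0.183 and 0.756). Unlike for hes5.6.L, the morpholino and wnt3a arrays of hes5.7.L overlapped.

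Hes5.3.L was dim, with 145 and 53.1 in morpholino caps, 34.9 and 15.6 in wnt3a caps, 1.60 and 1.02 in chordin caps and 51.8 and 36.9 in uninjected caps. Both chordin arrays were at background, and its level was at least 1.83-fold lower there than in uninjected caps (limma adjusted p = 0.0127), a call lost without uninjected replicate 2 or either chordin array among the 6 omissions that still tested it (limma adjusted p up to 0.0591). Its difference when wnt3a was added did not pass (limma adjusted p = 0.0951, and 0.0354 with the replicate block). Hes5.10.L ranged from 101 to 688 and passed in no comparison. Hes7.2.L and hes5.2.S did not pass the filter. Hes7.2.L read 289 and 24.5 on morpholino replicates 1 and 2, against a background of 26.1 on replicate 2. Hes5.2.S read 76.7 and 26.6 on the morpholino arrays with no wnt3a array above background. In hes5.1.S and hes5.2.L the morpholino call was lost without morpholino replicate 1, wnt3a replicate 1 or wnt3a replicate 2. In hes5.1.L it held only without morpholino replicate 2, and in hes5.5.S only without either chordin array or morpholino replicate 2. Over these omissions the changes lay between 2.31 and 4.38 and limma adjusted p reached 0.121.

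**Figure D3:**
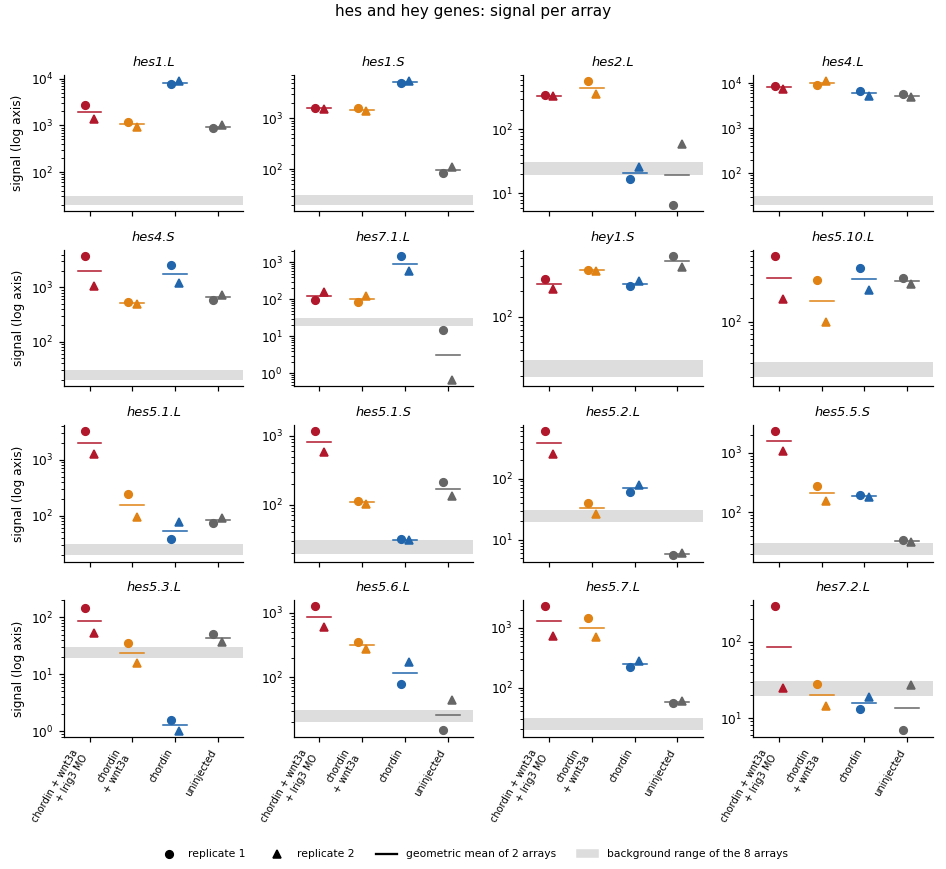
Signal on each array (vertical, log axis) of the hes and hey genes, by group; circles are replicate 1, triangles replicate 2, bars the geometric mean of 2 arrays, and the grey band the background range of 19.5 to 30.8. Hes1.L, hes1.S and hes7.1.L are highest in the chordin caps, while hes5.1.L, hes5.1.S, hes5.2.L and hes5.5.S are highest in the morpholino caps.

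Of the 10 proneural genes, which encode the factors that commit a cell to become a neuron, 1 was tested, neurog2.S. It read 605 and 62.7 in morpholino caps, 80.5 and 51.4 in wnt3a caps, 37.8 and 35.8 in chordin caps and 43.1 and 20.6 in uninjected caps. Morpholino replicate 1 stood far above every other array, and morpholino replicate 2 lay between the wnt3a arrays. The change with the morpholino was 1.55 (SE 0.94) and did not pass (limma adjusted p = 0.37). Without morpholino replicate 2 it was 3.13 (limma adjusted p = 0.0449), and without morpholino replicate 1 it was -0.037 (limma adjusted p = 0.979).

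The same split appeared in dim proneural genes that did not pass the filter. Neurog2.L read 91.9 and 22.1 on morpholino replicates 1 and 2, neurod4.L 117 and 21.3, neurod1.L 45.4 and 4.93 and neurod1.S 56.4 and 17.0. Each exceeded background on replicate 1 and not on replicate 2. In wnt3a caps these 4 genes read between 0.18 and 17.8 and were at background on both arrays. Ascl2 (both copies), neurod6.L and atoh7.S exceeded background on no array, and atoh7.L on uninjected replicate 2 only. Of the 19 genes that did not pass the filter, 8 exceeded background on morpholino replicate 1 and 2 on morpholino replicate 2.

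The cascade genes downstream of Neurogenin in the frog were led by ebf2.S and ebf3.L, helix-loop-helix factors of differentiating neurons. Ebf2.S read 339 and 196 in morpholino caps, 187 and 252 in wnt3a caps, 33.2 and 63.4 in chordin caps and 11.4 and 14.3 in uninjected caps. The uninjected arrays were at background, and the wnt3a arrays lay above the chordin arrays. When wnt3a was added, ebf2.S rose by 2.12 (SE 0.41, limma adjusted p = 0.0292). Its level was at least 1.67-fold higher in chordin caps and at least 7.26-fold higher in wnt3a caps than in uninjected caps (limma adjusted p = 0.032 and 0.00187). Ebf3.L read 124 and 88.6 in morpholino caps, 111 and 111 in wnt3a caps, 4.93 and 21.7 in chordin caps and 5.94 and 21.0 in uninjected caps. It exceeded background on the 4 arrays with wnt3a and on none of the others. Its level in wnt3a caps was at least 3.80-fold higher than in uninjected caps (limma adjusted p = 0.0143) and at least 4.34-fold higher than in chordin caps (limma adjusted p = 0.0423). Neither gene separated morpholino from wnt3a caps, with changes of 0.24 and -0.08 (limma adjusted p = 0.768 and 0.958).

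The rise of ebf2.S in wnt3a caps against uninjected caps held under all 8 omissions. Its chordin call was lost without either uninjected array or chordin replicate 2 (limma adjusted p up to 0.147), and its call with wnt3a held only without either morpholino array (limma adjusted p up to 0.169 otherwise). The call of ebf3.L with wnt3a held only without uninjected replicate 1 (up to 0.196 otherwise), and that against uninjected caps was lost without uninjected replicate 1 or either wnt3a array (up to 0.0759).

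Insm1.L, a zinc finger factor of neuronal progenitors, read 616 and 152 in morpholino caps, 86.0 and 59.1 in wnt3a caps, 18.5 and 39.0 in chordin caps and 73.9 and 91.8 in uninjected caps. Myt1.S, a zinc finger factor that promotes primary neurons in the frog, read 296 and 102 in morpholino caps, 44.9 and 89.2 in wnt3a caps, 191 and 53.6 in chordin caps and 153 and 106 in uninjected caps. Morpholino replicate 1 was the highest array for both. Their changes with the morpholino were 2.03 and 1.39 and did not pass (limma adjusted p = 0.119 and 0.29). Without morpholino replicate 2 that of insm1.L was 3.02 (limma adjusted p = 0.0449), and over both of its probe sets with all arrays it was 2.44 (limma adjusted p = 0.0453). Ebf2.L was dim, between 3.52 and 76.0, and passed in no comparison. Nhlh1.L, a helix-loop-helix gene of early neurons, did not pass the filter and read 110.1 and 14.8 on morpholino replicates 1 and 2, with 2.12 to 2.95 on the 6 other arrays. Its copy nhlh1.S exceeded background on no array.

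Among neuron products, elavl3.L, an RNA-binding protein of new neurons, read 823 and 410.0 in morpholino caps, 115 and 143 in wnt3a caps, 50.6 and 6.39 in chordin caps and 71.4 and 104 in uninjected caps. Both morpholino arrays were the highest and both chordin arrays the lowest, yet none of its changes passed: -1.85 with chordin, 2.39 with wnt3a and 2.14 with the morpholino, with limma adjusted p of 0.0978, 0.13 and 0.136. Elavl4.L did not pass the filter and exceeded background on morpholino replicate 1 alone.

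Tubb2b.S, the neuronal tubulin of the frog's primary neurons, read 4507 and 3864 in morpholino caps, 4471 and 4813 in wnt3a caps, 4553 and 4973 in chordin caps and 1300 and 2071 in uninjected caps. All 6 injected arrays lay above the uninjected ones, and the wnt3a arrays overlapped both the morpholino and the chordin arrays, while both morpholino arrays lay below both chordin arrays. It rose by 1.53 with chordin (SE 0.22, limma adjusted p = 0.00415) and by 1.50 in wnt3a caps against uninjected caps (SE 0.22, limma adjusted p = 0.00427), under all 8 omissions. Tubb3.L, the class III tubulin of neurons, read 210.1 and 91.7 in morpholino caps, 171 and 216 in wnt3a caps, 49.3 and 116 in chordin caps and 10.8 and 17.8 in uninjected caps. Its uninjected arrays were at background. It was at least 2.65-fold higher in chordin caps and at least 6.44-fold higher in wnt3a caps (limma adjusted p = 0.0257 and 0.00503), the second under all 8 omissions and the first not without either uninjected array or chordin replicate 2 (up to 0.122). Neither change with the morpholino passed (-0.15 and -0.45, limma adjusted p = 0.724 and 0.651).

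Other tubulins, known from many tissues besides neurons, had other patterns. Tubb4b.S read 3325 and 10890 in morpholino caps, 2444 and 2188 in wnt3a caps, 4290 and 6621 in chordin caps and 17230 and 17610 in uninjected caps. The uninjected arrays were the highest and morpholino replicate 2 came next. It fell by 1.71 with chordin (SE 0.51, limma adjusted p = 0.0449, and 0.05, no longer passing, with the replicate block) and by 2.91 in wnt3a caps against uninjected caps (SE 0.51, limma adjusted p = 0.00761). Beside it, the summed signal of the 21 multiciliated cell genes was 2842 and 8340 in morpholino caps, 2742 and 2359 in wnt3a caps, 3984 and 5860 in chordin caps, and 26280 and 27690 in uninjected caps, with 12 of the 18 tested fallen with chordin. Whether those cells account for the tubb4b.S signal was not tested. The chordin call of tubb4b.S held only without either morpholino array (limma adjusted p up to 0.212 otherwise), and that in wnt3a caps under all 8 omissions.

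Tubb4b.L fell by 0.70 with chordin (SE 0.11, limma adjusted p = 0.00639) and by 0.70 in wnt3a caps against uninjected caps (limma adjusted p = 0.0059), with 13870 and 13390 in wnt3a caps, 13520 and 13690 in chordin caps and 23380 and 20910 in uninjected caps. Scaling to the spike-in controls removed both calls (-0.025 and 0.039, limma adjusted p = 0.958 and 0.927). Tubb.L rose by 0.55 with chordin (SE 0.093, limma adjusted p = 0.00719) and by 0.51 in wnt3a caps against uninjected caps (limma adjusted p = 0.0082). Those calls were lost without chordin replicate 1 (limma adjusted p = 0.0534) and without wnt3a replicate 2 (limma adjusted p = 0.0587). Tubb4a.S stayed between 10010 and 11880 and passed in no comparison.

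Tubb6.L was the gene that fell with the morpholino. It read 109.8 and 173 in morpholino caps, 443 and 464 in wnt3a caps, 225 and 247 in chordin caps and 384 and 268 in uninjected caps. Both morpholino arrays were the lowest of the 8 and both wnt3a arrays the highest. It fell by 1.68 (SE 0.28, limma adjusted p = 0.0301), which held only without morpholino replicate 2 (limma adjusted p up to 0.13 under the other omissions). Its copy tubb6.S rose by 1.82 in wnt3a caps against uninjected caps (SE 0.36, limma adjusted p = 0.0107), a call lost without uninjected replicate 2 or wnt3a replicate 2 (up to 0.0639).

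Stmn1.S, the microtubule regulator stathmin, read 411 and 609.9 in morpholino caps, 229 and 191 in wnt3a caps, 781 and 986 in chordin caps and 1322 and 1588 in uninjected caps. The 4 groups did not overlap, with wnt3a caps lowest and uninjected caps highest. It fell by 2.04 when wnt3a was added (SE 0.25, limma adjusted p = 0.00574) and by 2.76 in wnt3a caps against uninjected caps (limma adjusted p = 0.000958), both under all 8 omissions. With the morpholino it rose by 1.24 (SE 0.25, limma adjusted p = 0.0433), a call lost under each of the 8 omissions (up to 0.165). With chordin its difference was -0.72 (limma adjusted p = 0.0698, and 0.0364 with the replicate block). The copy stmn1.L, between 2024 and 4146, and stmn3.S passed in no comparison, and the other 4 stathmin family genes (stmn2.L, stmn3.L, stmn4.L and stmn4.S) did not pass the filter.

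**Figure D4:**
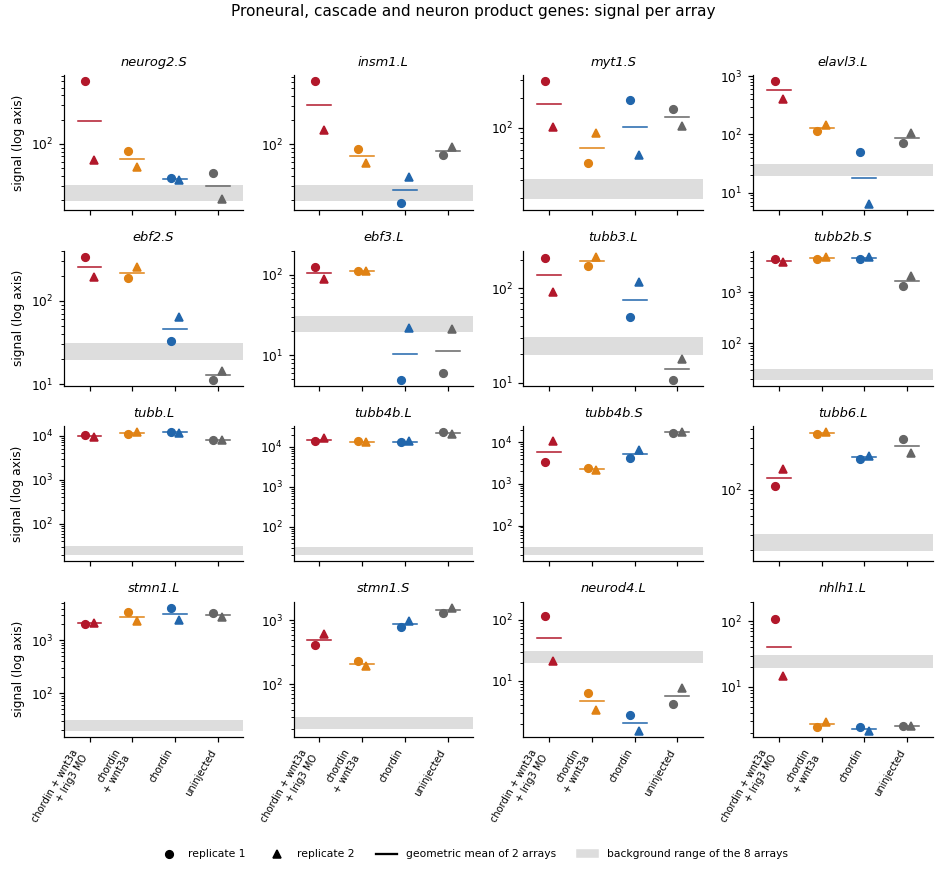
Signal on each array (vertical, log axis) of proneural and cascade genes and neuron products, by group; circles are replicate 1, triangles replicate 2, bars the geometric mean of 2 arrays, and the grey band the background range of 19.5 to 30.8. Neurog2.S, neurod4.L and nhlh1.L are high on morpholino replicate 1 only, whereas elavl3.L is highest on both morpholino arrays, at 823 and 410.0.

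The difference with the morpholino was also taken within each replicate number, a comparison chosen after the data were seen. For the 8 genes that rose, it lay between 0.83 and 3.78 (median 3.14) in replicate 1 and between 1.13 and 3.71 (median 2.58) in replicate 2. Since these 8 were chosen as called on the same arrays, their direction in each replicate is a description only. Without morpholino replicate 1 the changes of the 8 lay between 1.33 and 3.03 and without morpholino replicate 2 between 0.96 and 4.36. Of all 21651 probe sets tested without morpholino replicate 1, limma called 0, while 3928 had an unadjusted p under 0.05. Over the 41 genes, the median difference was 0.83 in replicate 1 and 0.34 in replicate 2. In 21 of the 41 genes both morpholino arrays lay above both wnt3a arrays, beside 26.9% of all probe sets, and in 9 both lay below, beside 25.2%. Of the 21, ebf2.L passed the low-signal filter only through the morpholino arrays, and hes5.3.L needed morpholino replicate 1 to pass. Their place among the 21 is thus a description only.

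**Figure D5:**
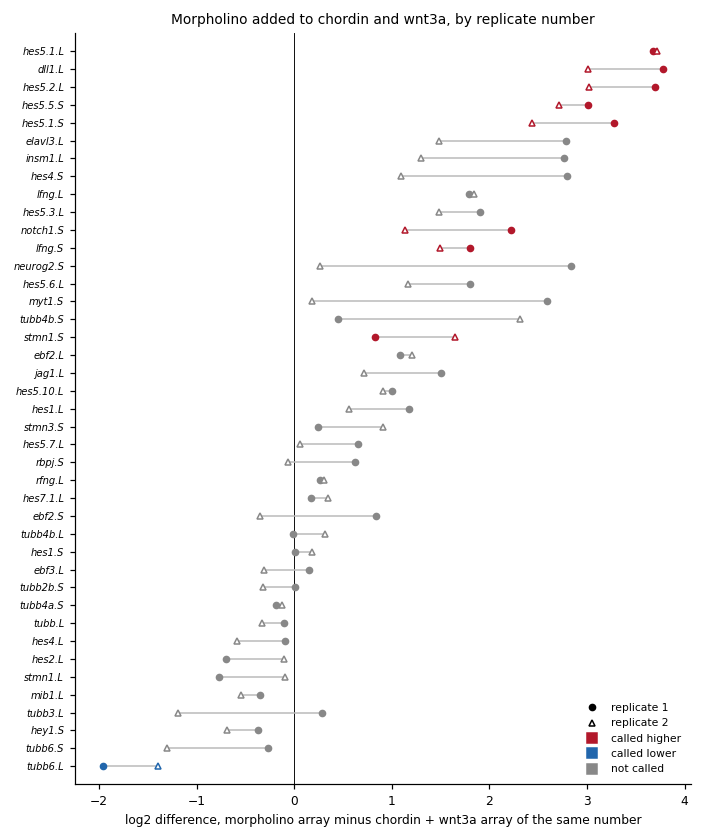
Difference of log2(signal + 5.22) between the morpholino array and the wnt3a array of the same replicate number (horizontal) for each of the 41 tested genes (down the page), filled circles for replicate 1 and open triangles for replicate 2, red where the gene rose, blue where it fell and grey otherwise. The 8 genes that rose, chosen on these arrays, lie right of 0 in both replicates, while neurog2.S and myt1.S are far apart between them.

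Scaling to the spike-in controls shifted all probe sets together. The median of all probe sets then was -0.90 with the morpholino, 0.74 with chordin, 0.049 with wnt3a and 0.82 in wnt3a caps against uninjected caps, and with the morpholino 149 probe sets rose and 5542 fell, against 601 and 476 before. On that scale dll1.L, hes5.1.L, hes5.1.S, hes5.2.L and hes5.5.S still rose with the morpholino, notch1.S, lfng.S and stmn1.S were no longer called, and 8 genes fell. In the other comparisons that scale removed the calls of hey1.S, tubb4b.L and tubb4b.S with chordin, of hes4.L and lfng.S with wnt3a, and of tubb4b.L in wnt3a caps against uninjected caps. It added hes4.S, mib1.L, notch1.S and tubb6.S with chordin, dll1.L, hes5.1.S, hes5.3.L and hes5.7.L with wnt3a, and hes5.1.L, lfng.L, lfng.S, mib1.L and tubb6.L in wnt3a caps against uninjected caps. With chordin, 5691 probe sets rose and 758 fell on that scale (3866 and 2579 before), and in wnt3a caps against uninjected caps 7071 rose and 1078 fell (4172 and 3242 before). Directions given here are relative to the arrays' common trimmed mean.

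The genes of both subgenomes allowed the copies to be set against each other, in a fit on the S minus L difference of 1503 pairs that was added after the data were seen. Both copies passed the filter for 8 genes (ebf2, hes1, hes4, hes5.1, lfng, stmn1, tubb4b and tubb6). With chordin, hes1 passed, beside 12.0% of all pairs: hes1.S rose by 2.57 more than hes1.L (SE 0.29, limma adjusted p = 0.00854). In wnt3a caps against uninjected caps, hes1 (3.72, SE 0.29, limma adjusted p = 0.00187), stmn1 (-2.66, SE 0.41, limma adjusted p = 0.0119) and tubb4b (-2.21, SE 0.46, limma adjusted p = 0.0274) passed, beside 15.0% of pairs. When wnt3a was added to chordin, limma called 0 of the 8, beside 2.93% of pairs, and with the morpholino 0, beside 3.93%. At an unadjusted p under 0.05 there were 5 of the 8 in each of these comparisons. The share of all pairs at that threshold was not taken, so these counts cannot be weighed. The replicate block also passed lfng with chordin (1.46, limma adjusted p = 0.0253), hes4, lfng and stmn1 with wnt3a (-2.53, -1.48 and -1.86, limma adjusted p = 0.0472, 0.0472 and 0.0184) and hes4 and stmn1 with the morpholino (2.28 and 1.67, limma adjusted p = 0.0475 and 0.0215). The share of all pairs that passed with the block was not taken, so these added passes cannot be weighed. Probes of close copies may cross-hybridise.

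Other genes of the Notch pathway, 20 tested of 24 listed, included proteases, cofactors and feedback regulators. Their median change with the morpholino was 0.011. With chordin 8 rose and 1 fell, with wnt3a 1 rose and 3 fell, with the morpholino 1 rose and 2 fell, and in wnt3a caps against uninjected caps 8 rose and 2 fell. Over all probe sets the shares that rose and fell were 17.6% and 11.7% with chordin, 3.08% and 2.74% with wnt3a, 2.73% and 2.16% with the morpholino, and 19.0% and 14.7% in wnt3a caps against uninjected caps. Nrarp.S, a feedback inhibitor that Notch itself induces, read 3404 and 2738 in morpholino caps, 1192 and 1491 in wnt3a caps, 2322 and 2257 in chordin caps, and 1515 and 1388 in uninjected caps. Its morpholino arrays were the highest of the 8, and its wnt3a arrays overlapped the uninjected ones. It rose by 0.66 with chordin (SE 0.17, limma adjusted p = 0.0291), fell by 0.78 with wnt3a (limma adjusted p = 0.047) and rose by 1.19 with the morpholino (limma adjusted p = 0.0238). Dtx4.L, a Deltex ubiquitin ligase, fell by 0.89 with wnt3a and by 1.57 with the morpholino (limma adjusted p = 0.0264 and 0.0164), and read 398 and 437 in morpholino caps against 1212 and 1281 in wnt3a caps. Psen2.S, a presenilin of the protease that cuts Notch, fell by 1.12 with the morpholino (limma adjusted p = 0.0409). Under the omission of single arrays the morpholino call of nrarp.S held 3 times of 8, that of dtx4.L 5 times and that of psen2.S never, each being lost without morpholino replicate 1 or either wnt3a array, with limma adjusted p of up to 0.109, 0.101 and 0.151. The wnt3a calls of nrarp.S, which also needed both uninjected arrays, and of dtx4.L and the chordin call of nrarp.S were lost without any of the 4 arrays compared (limma adjusted p up to 0.235, 0.194 and 0.130).

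Other neuron genes, 29 tested of 45 listed, rose in 6 and fell in 3 cases with chordin, rose in 1 and fell in 2 with wnt3a, rose in 3 with the morpholino (isl1.S, lhx5.S and sox11.S) and rose in 13 and fell in 3 in wnt3a caps against uninjected caps. The 6 rises with chordin are 20.7% of the 29, beside 17.6% of all probe sets, and the 3 falls 10.3%, beside 11.7%. With wnt3a 3.45% rose and 6.9% fell, beside 3.08% and 2.74%. With the morpholino 10.3% rose, beside 2.73%. In wnt3a caps against uninjected caps 44.8% rose and 10.3% fell, beside 19.0% and 14.7%. Isl1.S was dim where it rose, with 28.8 and 56.7 in morpholino caps and 7.89 and 0.72 in wnt3a caps. Morpholino replicate 1 lay under its background of 30.8 there. In chordin caps isl1.S read 135 and 199, and in uninjected caps 148 and 207. Of the 3 rises with the morpholino, those of isl1.S and lhx5.S were lost under each of the 8 omissions (limma adjusted p up to 0.165 and 0.122). That of sox11.S held only without either uninjected array or morpholino replicate 2 (limma adjusted p up to 0.115 otherwise). With the replicate block 10 rose with chordin, while over all 22000 probe sets 5350 rose with the block and 3866 without it. The median change of the list was 0.41 with chordin and 0.56 with the morpholino. The neural progenitor genes, 13 tested of 14 listed, had other counts. With chordin 12 rose, beside 17.6% of all probe sets, and when wnt3a was added 2 rose and 5 fell, beside 3.08% and 2.74%. With the morpholino 6 rose, beside 2.73%, sox2.L among them, a factor that keeps neural precursors undifferentiated (3.24, SE 0.42, limma adjusted p = 0.0216). Of the 8 omissions, the morpholino call of sox1.S held under none and that of gmnn.S under 1. That of foxd4l1.1.S held under 6, and those of sox2.L, sox3.L and sox3.S under 7 each. Each of these calls was lost without morpholino replicate 1. Sox2.L read 5529 and 4065 in morpholino caps, 314 and 787 in wnt3a caps, 9627 and 7027 in chordin caps, and 245 and 213 in uninjected caps. The summed signal of the progenitor list was 63360 and 58700 in morpholino caps and 22930 and 31200 in wnt3a caps, beside the rises of dll1.L, notch1.S and the hes5 genes. The part of a changed number of neural cells in those rises was not tested.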

How the data were processed

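RNA extracted with TRIzol, per the labels' protocols, was measured for 8 animal cap samples on Affymetrix arrays of 32635 probe sets. The deposited values are linear intensity values made with MAS5, per the submitters' processing notes. Every array has a 2% trimmed mean of about 500, so no further normalization was applied. The sample titles gave groups and replicate numbers. Of the probe sets that are not controls, 15495 carry 1 symbol in the platform annotation, 279 several and 16765 none, and all 60 symbols matched RefSeq's gene table. Detection calls and sequences were not used here.

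After the 96 control probe sets were set aside, 22000 of 32539 probe sets exceeded their array's 40th percentile at least 2 times and were tested on log2(intensity + 5.22), the amount being the 10th percentile of all values. Limma 3.58.1 in R 4.3.3 (lmFit, then eBayes with trend and robust) fitted the 4 group means with 4 residual degrees of freedom. The procedure was run on simulated data with independent noise on each array. Those data held no differences shared by arrays of the same replicate number, so the run does not bear on such differences. The median standard error was 0.29, and the number of arrays limits the precision. For 1 gene, an exact permutation test of 2 against 2 arrays cannot go below p = 0.333, so none is given. Background is the highest of 23 negative controls on an array. A fold written "at least" applies when the lower group was at background on both arrays: it divides the higher group's geometric mean of signal + 5.22 by the lower group's, in which each array counts at its background.

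The differences of replicate 1 minus replicate 2 correlated at 0.172 to 0.505 over all 6 pairs of groups. The 3' to 5' ratio of gapdh, a sign of RNA quality, was lower in all replicate 1 samples (1.26 to 1.41) than in all replicate 2 samples (1.61 to 1.76). The reported fit did not use the replicate number, so its p-values are unpaired. Only the replicate block and the differences within a replicate number treated arrays of the same number as pairs. The labels do not say what these numbers mark. Values with the replicate block stand beside results where they change a call.

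The genes and lists were chosen with earlier results of these data known, so no list is independent evidence. Genes were named by rule: the markers dll1, hes5.1 and hes7.1, up to 15 called genes of largest change in each comparison, and the core genes of each role whether called or not. Alternatives covered the filter, the added amount, quantile and spike-in scaling, the block, the arrays in the fit, the mean over probe sets and the omission of each array.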

Additional observations from a re-analysis of the deposited data

How the results depend on the processing

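Counts of called genes changed with the arrays in the fit. With chordin, 5 of the 41 genes fell as reported, 2 with spike-in scaling, and between 2 (without either uninjected array or chordin replicate 2) and 7 (without morpholino replicate 2) when single arrays were left out, with 3 without chordin replicate 1. When wnt3a was added, 5 rose as reported, 3 under the stricter filter and 2 when only the 4 compared arrays were fitted. Leaving out single arrays gave between 1 (without either wnt3a array or chordin replicate 2) and 5 rises, with 2 without chordin replicate 1 or uninjected replicate 2 and 3 without uninjected replicate 1. In that comparison 5 fell as reported, 3 with quantile normalization, and between 3 (without either chordin array or wnt3a replicate 1) and 8 (without morpholino replicate 2). With the morpholino, 8 rose and 1 fell as reported, 5 rose and 8 fell with spike-in scaling, and limma called 0 either way when only the compared arrays were fitted. Leaving out single arrays gave between 0 (without either wnt3a array or morpholino replicate 1) and 10 (without morpholino replicate 2) rises, with 2 without either uninjected array and 3 and 4 without chordin replicates 1 and 2. It gave between 0 and 1 falls, the 1 being without morpholino replicate 2. Over all probe sets, the fits that called 0 rises or 0 falls here also called far fewer than the 601 rises and 476 falls of the full fit. In wnt3a caps against uninjected caps 16 rose as reported, and between 9 (without wnt3a replicate 2) and 16 when single arrays were left out. The replicate block gave 14 rises and 5 falls with chordin, 7 and 6 with wnt3a, 10 and 1 with the morpholino, and 18 and 4 in wnt3a caps against uninjected caps. Over all 22000 probe sets it gave 5350 rises and 3572 falls with chordin (3866 and 2579 without it) and 1079 and 952 with wnt3a (678 and 602). With the morpholino it gave 1675 and 1614 (601 and 476), and in wnt3a caps against uninjected caps 5717 and 4082 (4172 and 3242). It ended the calls of hes5.6.L and tubb4b.S with chordin and of hes7.1.L with wnt3a. It added mib1.L, notch1.S and stmn1.S with chordin, dll1.L, hes5.1.S, hes5.3.L and rbpj.S with wnt3a, jag1.L and lfng.L with the morpholino, and lfng.S and mib1.L in wnt3a caps against uninjected caps, and it changed no other call of the 41 genes. The change of tubb4b.L in wnt3a caps against uninjected caps was -0.70 as reported and 0.0391 (limma adjusted p = 0.927) with spike-in scaling. Adding 32 in place of 5.22 ended the chordin calls of ebf2.S, hes5.6.L, hes5.7.L and tubb3.L and that of hes5.2.L in wnt3a caps against uninjected caps. Adding 1 ended those of ebf3.L, hes4.L and hes7.1.L with wnt3a and added hes5.1.S and hes5.3.L there. The stricter filter ended the calls of ebf2.S with chordin and with wnt3a, of hes7.1.L with wnt3a and of hes5.2.L in wnt3a caps against uninjected caps. It added mib1.L with chordin. Quantile normalization ended the calls of tubb4b.S with chordin and of ebf3.L, hes7.1.L and lfng.S with wnt3a. Leaving out single arrays, the other Notch genes that rose with chordin numbered 2 to 7 (8 as reported), and the other neuron genes that rose in wnt3a caps against uninjected caps 7 to 14 (13 as reported). With spike-in scaling, 7 other Notch genes fell with the morpholino (2 as reported, and 4 with the replicate block), and 10 other neuron genes rose with chordin (6 as reported, and 10 with the block). Fits of fewer arrays have fewer residual degrees of freedom, and spike-in scaling shifted all probe sets together. The causes of these changes, the part of either among them, were not tested.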
